A study of Mus musculus with 6 samples.

Results

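Genes of immature neurons and axon growth were examined in the retina of *Mll1KO* and WT mice at postnatal day 14 (P14). The group was set by name and holds 10 genes, namely the transcription factors *Sox4* and *Sox11*, the microtubule-binding gene *Dcx*, the growth cone gene *Gap43*, the stathmins *Stmn1*, *Stmn2*, *Stmn3* and *Stmn4*, and the collapsin response mediators *Crmp1* and *Dpysl3*. Of these, 9 were among the 11339 genes of the deposited table, and *Sox11* was not analysed here. Each group had 3 retinal samples of the C57Bl6/J strain, every sample made from a pair of retinas. *Mll1KO* mice carried floxed *Mll1* on both alleles (MLL1 fl/fl) together with Chx10-Cre, and WT mice were wild type and carried neither. Chx10-Cre drives recombination in retinal progenitor cells, so all cell types that arise from them can carry the deletion, whereas cells that enter the retina from elsewhere, such as vascular cells and microglia, are not expected targets. Since the WT samples were not Cre-negative littermates, effects of the Cre transgene or of the floxed line cannot be told apart from those of the deletion.

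MLL1 (encoded by *Kmt2a*, the current symbol of *Mll1*) methylates histone H3 at lysine K4, a mark of active promoters, and binds unmethylated CpG-rich DNA through its CXXC domain. A neuron that has left the cell cycle switches on SoxC transcription factors and then genes that build its axon. DCX and the stathmins act on microtubules, GAP43 works at the growth cone membrane, and the CRMP proteins link guidance cues such as semaphorins to the cytoskeleton. In the retina these genes are expressed in newly born neurons, and several of them stay on in ganglion and amacrine cells after birth.

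The recovered library totals lay between 17961098 and 23836034 reads. Every library had at least 90 reads on each listed gene, a minimum that largely follows from the authors' CPM filter. *Kmt2a* was 36.1, 36.9 and 34.6 RPKM (reads scaled to gene length and library size) in WT and 22.9, 20.4 and 22.3 RPKM in *Mll1KO*, which is 60.9% of the WT mean (limma adjusted p = 2.77e-05). The value covers the whole gene, and most of its exons lie outside the floxed part, so it checks the genotype labels only in part. Values were compared on the log2(RPKM + 1) scale, which understates the change of weakly expressed genes, with Benjamini-Hochberg adjustment over all 11339 genes at a threshold of 0.05. In *Mll1KO*, 14.5% of all genes were called lower, 8.81% higher and 23.3% in either direction, and 26.5% of all genes were below WT in every library.

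Most immature neuron and axon growth genes were lower in *Mll1KO* than in WT. Of the 9 listed genes, 7 were called lower (77.8%, beside 14.5% of all genes) and 0 higher. The 7 genes were *Sox4*, *Dcx*, *Gap43*, *Stmn1*, *Stmn2*, *Crmp1* and *Dpysl3*, and their mean RPKM was lower by between 14.1% for *Dpysl3* and 42.1% for *Dcx*. *Stmn3* and *Stmn4* did not pass the test. In 8 of the 9 genes all 3 *Mll1KO* libraries lay below all 3 WT libraries (88.9%, beside 26.5% of all genes), the exception being *Stmn4*. The median log2 fold change of the 9 genes was -0.40, and that of all genes was -0.03. Because whole retinas were sequenced, fewer cells that express a gene and less RNA of that gene per cell cannot be told apart.

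**Figure D1:**
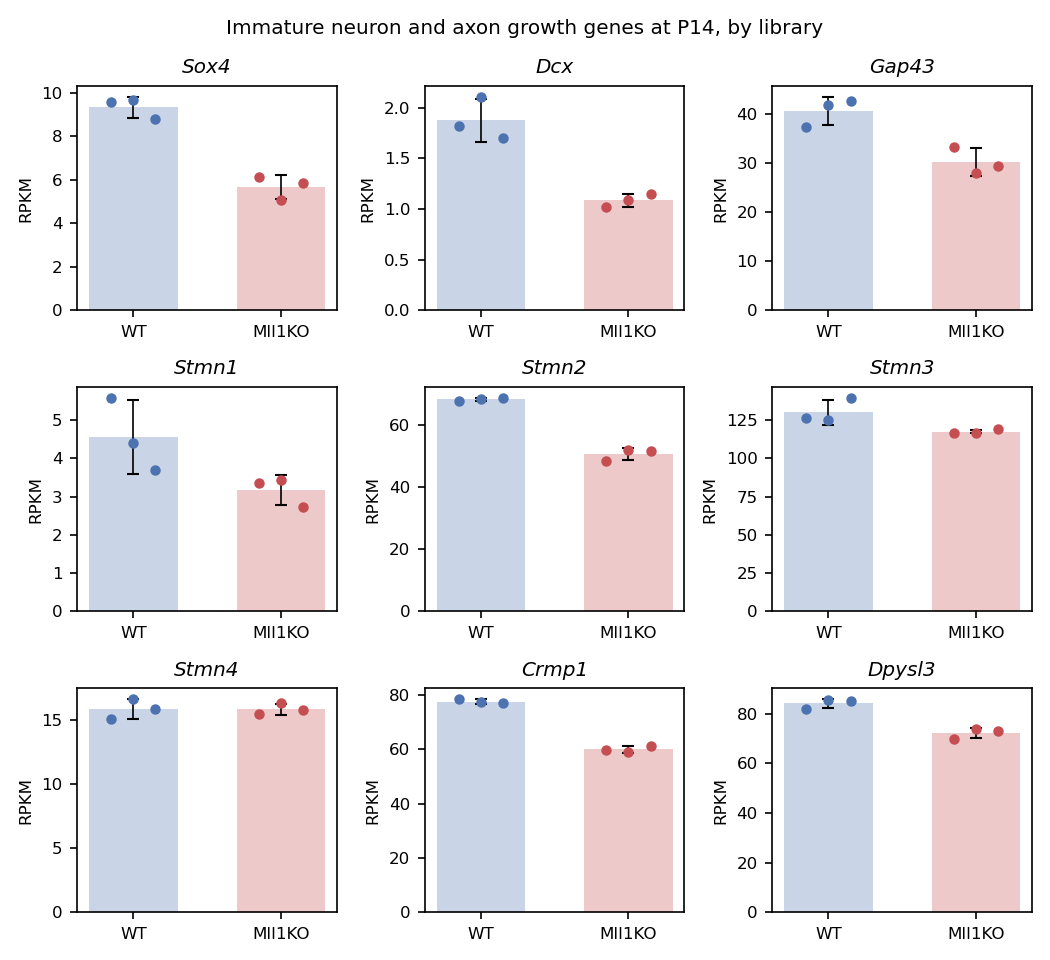
RPKM of each listed immature neuron and axon growth gene (y axis, from 0) in WT and *Mll1KO* libraries, with points for the 3 libraries of a group, bars for the group mean and error bars for the SD. In every panel except *Stmn4* the 3 *Mll1KO* points lie below the 3 WT points.

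*Sox4* had the largest decrease of the group on the log2(RPKM + 1) scale. It encodes a SoxC transcription factor that, with SOX11, acts downstream of proneural factors in newly born neurons and is needed for ganglion cell development. The gene (ENSMUSG00000076431) is a single exon on chromosome 13 from 28948919 to 28953713, minus strand, GRCm38. *Sox4* was 9.55, 9.66 and 8.77 RPKM in WT replicates a, b and c, and 6.13, 5.06 and 5.83 RPKM in *Mll1KO* replicates a, b and c. The highest *Mll1KO* library thus stayed below the lowest WT library. The mean fell from 9.33 ± 0.481 (SD, n = 3) to 5.67 ± 0.549 RPKM (SD, n = 3). This corresponds to -0.63 on the log2 scale (standard error 0.07, limma adjusted p = 0.000251). Only 0.63% of all genes had a lower log2 fold change. Reads of 54.6% of the *Sox4* exon bases could also stem from *Gm26735*, which overlaps on the opposite strand, since the strand used for counting is not given in the sources used here.

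*Dcx* encodes doublecortin, a protein that stabilises microtubules in migrating neurons and in growing neurites and is widely used as a marker of immature neurons. The gene ID is ENSMUSG00000031285, at 143855842 to 143933311 of the X chromosome, minus strand. *Dcx* had the lowest level of the group, 1.81, 2.11 and 1.70 RPKM in WT and 1.02, 1.09 and 1.15 RPKM in *Mll1KO*. These low values still rested on 261 to 547 reads per library, because RPKM was computed over an exon length of 12647 bases. All *Mll1KO* libraries were below all WT libraries. The log2 fold change was -0.46 (standard error 0.06, adjusted p = 0.000828) with the pseudocount of 1, and the log2 difference of RPKM without a pseudocount was -0.78, the largest of the 9 genes on that scale.

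*Gap43*, which encodes a membrane phosphoprotein of growth cones that binds calmodulin and is phosphorylated by protein kinase C, has the ID ENSMUSG00000047261 and occupies 42248442 to 42340651 of chromosome 16, minus strand. Its RPKM was 37.3, 41.9 and 42.7 in WT and 33.4, 27.9 and 29.5 in *Mll1KO*. WT replicate a and *Mll1KO* replicate a came closest to each other, and the groups did not overlap. The mean decreased from 40.7 ± 2.91 to 30.3 ± 2.82 RPKM (SD, n = 3 each), and the log2 fold change was -0.41 (standard error 0.07, adjusted p = 0.00272).

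Stathmins bind tubulin dimers and promote microtubule turnover. STMN1 is cytosolic and common in dividing and immature cells, whereas STMN2 (SCG10), STMN3 (SCLIP) and STMN4 (RB3) carry a membrane anchor and are found in neurons and their growth cones. *Stmn1* and *Stmn2* were called lower in *Mll1KO*, and *Stmn3* and *Stmn4* were not.

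*Stmn1* (ENSMUSG00000028832, chromosome 4 from 134468320 to 134473843, plus strand) was 5.59, 4.39 and 3.69 RPKM in WT and 3.36, 3.43 and 2.72 RPKM in *Mll1KO*. These values rested on 94 to 256 reads per library, the fewest of the group. The 94 reads were in *Mll1KO* replicate c, where the fewest reads of any listed gene were 90. The WT libraries were spread widely, and the lowest of them was only slightly above the highest *Mll1KO* library. The log2 fold change was -0.40 (standard error 0.12, adjusted p = 0.0323), the weakest call of the 7. It was lost when WT replicate a (adjusted p = 0.0855), WT replicate b (0.0725) or *Mll1KO* replicate c (0.115) was left out. The coefficient of variation among WT libraries was 21.1%, and counting error alone would give 7.32%. Of all 50-base stretches of the *Stmn1* transcripts, 18.9% also occur in *Gm11223* or *Gm23634*, so the origin of such reads is ambiguous. *Gm23634* lies on the same strand over 66 bases of the *Stmn1* exons.

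*Stmn2* (ENSMUSG00000027500, chromosome 3 from 8509360 to 8561606, plus strand) showed the tightest WT replicates. It was 67.8, 68.3 and 68.8 RPKM in WT and 48.4, 52.0 and 51.8 RPKM in *Mll1KO*. The coefficient of variation in WT was 0.747%, below the 1.92% that counting error gives. The mean decreased by 25.7%, with a log2 fold change of -0.42 (standard error 0.04, adjusted p = 0.000115), close to that of *Gap43*.

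*Stmn3* (ENSMUSG00000027581, chromosome 2 from 181306459 to 181314500, minus strand) had the highest level of all 9 genes. Its RPKM was 126.3, 124.8 and 139.7 in WT and 116.8, 116.9 and 119 in *Mll1KO*. The 3 *Mll1KO* libraries were below the WT libraries, of which replicate c stood higher than a and b. The log2 fold change was -0.14 with a 95% interval from -0.25 to -0.04, and the adjusted p of 0.0564 missed the threshold. Without WT replicate c the log2 fold change was -0.09 (adjusted p = 0.146). *Stmn4* (ENSMUSG00000022044, chromosome 14 from 66344296 to 66361680, plus strand) was 15.1, 16.7 and 15.9 RPKM in WT and 15.4, 16.3 and 15.8 RPKM in *Mll1KO*, so that the *Mll1KO* libraries lay within the WT range. Its log2 fold change was -0.0012 with a 95% interval from -0.11 to 0.11 (adjusted p = 0.989). The lower bound of that interval is closer to 0 than the log2 fold change of any of the 7 called genes.

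The CRMP family genes were both lower in *Mll1KO*, and both were measured precisely. *Crmp1*, which encodes a mediator of semaphorin signalling (ENSMUSG00000029121, chromosome 5 from 37241940 to 37292133, plus strand), was 78.7, 77.3 and 76.9 RPKM in WT and 59.7, 59.0 and 61.5 RPKM in *Mll1KO*. There was a gap of more than the range of either group between the genotypes, and the log2 fold change was -0.37 (standard error 0.04, adjusted p = 0.000146). *Dpysl3* encodes CRMP4, which binds actin and microtubules in growth cones (ENSMUSG00000024501, on the minus strand of chromosome 18). It was 81.9, 85.4 and 85.0 RPKM in WT and 69.7, 73.7 and 73.2 RPKM in *Mll1KO*. These values rested on 8235 to 12225 reads per library, the most of the group. *Dpysl3* had the smallest of the called decreases, a log2 fold change of -0.22 (standard error 0.04, adjusted p = 0.00398).

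**Figure D2:**
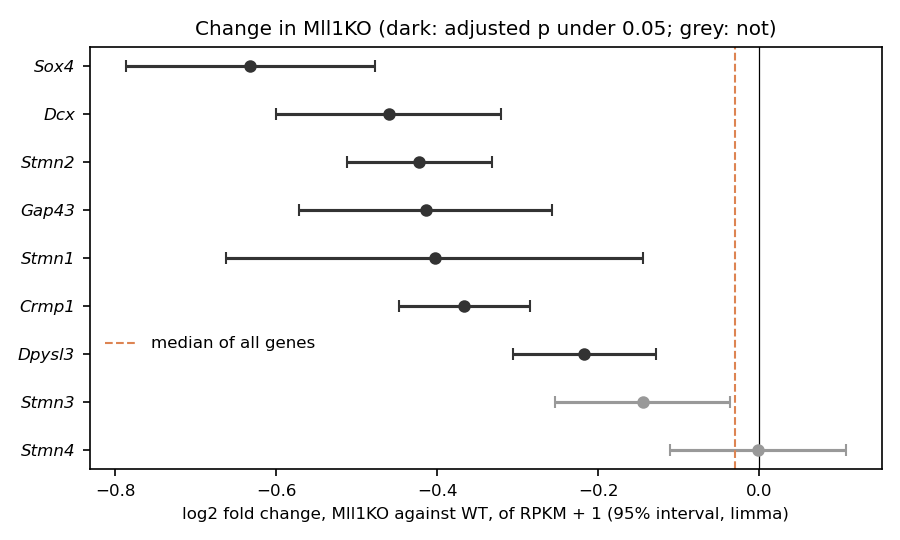
Log2 fold change of RPKM + 1 in *Mll1KO* against WT (x axis) for each listed gene, with points for the limma estimate over 3 against 3 libraries and bars for its 95% interval. Dark points passed the adjusted p threshold of 0.05 and grey points did not, and the dashed line marks the median of all genes at -0.03. The intervals of all listed genes except *Stmn4* lie left of that line, that of *Stmn3* only just, while that of *Stmn4* spans 0.

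The order of the levels was the same in both genotypes. From the highest to the lowest mean RPKM it ran *Stmn3*, *Dpysl3*, *Crmp1*, *Stmn2*, *Gap43*, *Stmn4*, *Sox4*, *Stmn1* and *Dcx*, from 130.3 to 1.87 RPKM in WT and from 117.6 to 1.09 RPKM in *Mll1KO*. No neighbours in this order overlapped between libraries within either group. In WT the mean of *Stmn3*, *Dpysl3*, *Crmp1*, *Stmn2* and *Gap43* exceeded that of 98.4%, 96.9%, 96.4%, 95.6% and 90.4% of all genes. For *Stmn4*, *Sox4*, *Stmn1* and *Dcx* these shares were 68.2%, 49.1%, 23.6% and 5.1%. The summed RPKM of the 9 genes was between 424 and 443.2 in WT libraries and between 354 and 360.5 in *Mll1KO* libraries. Levels per kilobase depend on the length used. It was recovered as 1904 bases for *Stmn2*, where the annotation gives 5602, and as 3355 bases for *Crmp1*, where it gives 7046.

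To determine whether related genes changed by different amounts, the log2 ratio of their RPKM was taken within each library, where library scaling cancels. The 8 pairs were the stathmins among themselves, *Crmp1* over *Dpysl3* and *Dcx* over *Gap43*. With 3 against 3 libraries the smallest two-sided p of the exact permutation test is 0.1, so no pair could pass the threshold. *Stmn2* over *Stmn4* went from 2.11 ± 0.07 in WT to 1.68 ± 0.03 in *Mll1KO* (SD, n = 3 each), a difference of -0.43 (standard error 0.04), and the groups did not overlap (exact permutation p = 0.1, adjusted over the pairs 0.16). *Stmn2* over *Stmn3* differed by -0.28 (standard error 0.06) and *Crmp1* over *Dpysl3* by -0.15 (standard error 0.04), again without overlap and with the same exact p. *Dcx* over *Gap43* and *Stmn1* over *Stmn4* were also lower in all *Mll1KO* libraries, by -0.36 (standard error 0.16) and -0.51 (standard error 0.23), the former shrinking to -0.24 without *Mll1KO* replicate a and the latter to -0.31 without WT replicate a. *Stmn1* over *Stmn2* differed by -0.08 (standard error 0.22, exact permutation p = 0.9), less than the spread between libraries. The ratios of *Stmn1* over *Stmn3* and *Stmn3* over *Stmn4* overlapped between genotypes, with differences of -0.36 (standard error 0.24) and -0.14 (standard error 0.07) and an exact permutation p of 0.3 each. The former was -0.18 without WT replicate a and -0.56 without WT replicate c, and the latter was -0.09 without WT replicate c.

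**Figure D3:**
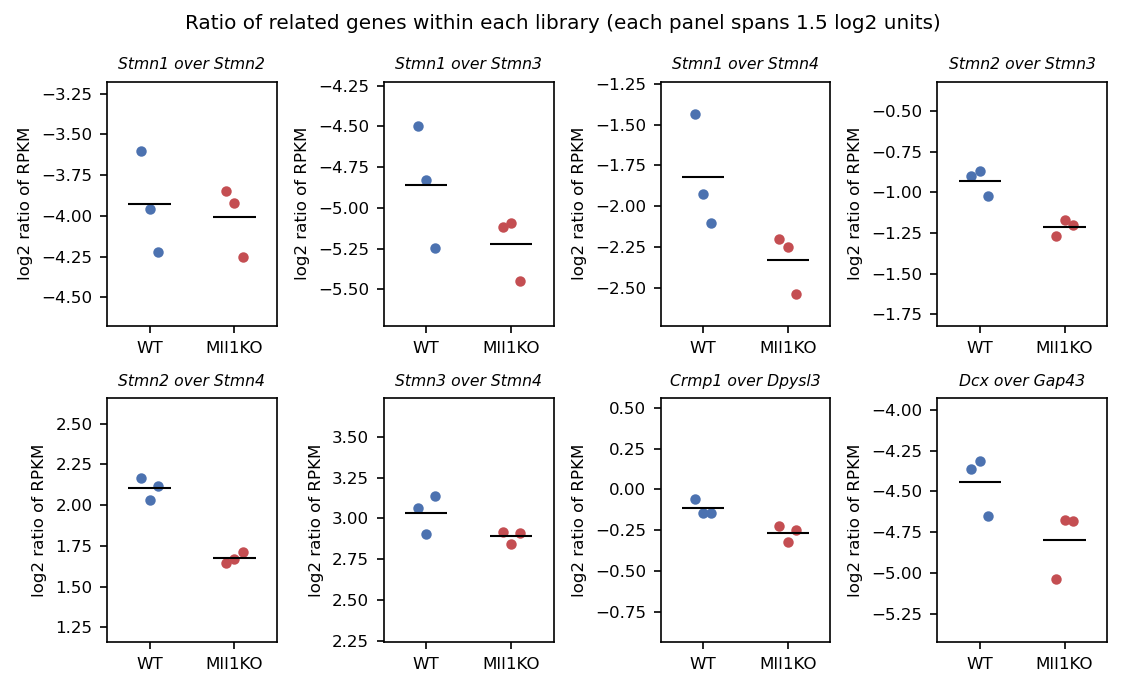
Log2 ratio of the RPKM of related genes within each library (y axis, 1.5 log2 units in every panel), with points for the 3 libraries of WT and *Mll1KO* and a line for the group mean. *Stmn2* over *Stmn4* separates the genotypes by 0.32 log2 units between the nearest points, while *Stmn1* over *Stmn2* overlaps widely.

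Promoter CpG was counted because MLL1 binds CpG-rich DNA. Whether CpG content bears on the changes was not tested. The RefSeq promoters used, of GRCm38.p6, were those of *Sox4*, *Sox11*, *Dcx*, *Crmp1* and *Stmn3*. Promoters of the other genes of the group, among them the called genes *Gap43*, *Stmn1*, *Stmn2* and *Dpysl3*, were not examined. The 250 bases before the start site held 11 CpG in *Sox4*, 17 in *Sox11*, 3 in *Dcx* (at each of its RefSeq starts), 30 and 16 at the starts of *Crmp1*, and 3 in *Stmn3*. Over 11412 promoters of 8777 listed genes the median was 16 CpG, with 2 at the 5th and 36 at the 95th percentile. *Sox4*, *Dcx* and *Stmn3* thus lay below this median and *Crmp1* at or above it, depending on the start. Part of some windows lies inside annotated exons of the gene. This holds for 187 and 92 bases at the *Dcx* starts, 118 at the *Crmp1* start with 30 CpG and 14 in *Sox4*. Shown next, 5′ to 3′ on the strand of the gene and with CpG in capitals, are the parts of these promoters that lie outside annotated exons, at chr13:28953714-28953949 (minus strand) for *Sox4*, chrX:143933312-143933469 (minus) for *Dcx*, chr5:37241808-37241939 (plus) for *Crmp1* and chr2:181314501-181314750 (minus) for *Stmn3*.
Sox4: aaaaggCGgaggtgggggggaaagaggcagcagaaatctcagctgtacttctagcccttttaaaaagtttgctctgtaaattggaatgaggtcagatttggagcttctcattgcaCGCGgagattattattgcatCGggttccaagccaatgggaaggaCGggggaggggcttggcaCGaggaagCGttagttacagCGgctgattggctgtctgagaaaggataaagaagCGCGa
Dcx: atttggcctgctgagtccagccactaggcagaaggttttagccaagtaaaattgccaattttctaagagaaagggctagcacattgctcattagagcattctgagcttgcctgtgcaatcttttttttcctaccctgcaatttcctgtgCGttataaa
Crmp1: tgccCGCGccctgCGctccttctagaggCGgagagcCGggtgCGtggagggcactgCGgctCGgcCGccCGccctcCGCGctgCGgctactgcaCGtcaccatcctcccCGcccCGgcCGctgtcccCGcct
Stmn3: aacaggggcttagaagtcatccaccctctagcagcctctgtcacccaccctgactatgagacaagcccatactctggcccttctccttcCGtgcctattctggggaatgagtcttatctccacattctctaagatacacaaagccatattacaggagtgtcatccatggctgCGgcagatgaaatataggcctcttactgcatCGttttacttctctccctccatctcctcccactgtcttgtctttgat

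The printed *Sox4* stretch has 10 CpG in 236 bases, that of *Crmp1* 18 in 132 bases, that of *Dcx* 1 in 158 bases and that of *Stmn3* 3 in 250 bases. Letter motifs were searched on both strands of the 250 bases. TATAAA, the core of the TATA box, was found in *Dcx* and in 5.9% of the promoters of listed genes. GGGCGG, the core of the GC box, was found at both starts of *Crmp1*, in *Sox11* and in 58.4% of those promoters. CAGCTG, an E-box that proneural factors can bind, was found in *Sox4* and *Sox11* and in 12.2% of those promoters. A match describes the letters only, and the assay did not measure binding.

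Close relatives of these genes were called in both directions. Among relatives of SOX4, DCX and the CRMP proteins, 6 of 7 were listed (not *Dclk3*). Of these, 2 were called lower, 1 higher and 3 neither, beside 14.5% of all genes called lower and 8.81% higher. The median log2 fold change of the relatives was -0.15. *Dpysl5*, which encodes CRMP5, fell from 21.0 ± 0.334 to 14.8 ± 0.369 RPKM (log2 fold change -0.47, adjusted p = 7.15e-05). The doublecortin-like kinase genes went opposite ways. *Dclk2* was lower, 14.8 ± 0.418 against 12.2 ± 0.156 RPKM (log2 fold change -0.26, adjusted p = 0.00232), and *Dclk1* was higher, 7.72 ± 0.274 against 9.38 ± 0.233 RPKM (log2 fold change 0.25, adjusted p = 0.0058), although scaling to rod genes turned the latter to -0.02. *Sox12*, the third SoxC gene, had a log2 fold change of -0.15 and did not pass the test, and neither did *Dpysl2* (-0.14) or *Dpysl4* (-0.01).

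Most growth cone and microtubule genes were called lower too, beside 14.5% of all genes called lower and 8.81% higher. Of 16 growth cone membrane and actin genes 10 were called lower and 0 higher (median log2 fold change -0.24), from *Islr2*, a membrane protein needed for axon extension, at -1.06 to *Gpm6a*, a neuronal membrane glycoprotein, at 0.10, which did not pass the test. *Islr2* was 9.41 ± 0.229 RPKM in WT and 4.01 ± 0.46 RPKM in *Mll1KO* (SD, n = 3 each). With TMM or upper-quartile factors 9 of the 16 growth cone genes were called lower, and with RLE factors 8. Of 12 axon microtubule genes 10 were called lower and 0 higher (median -0.29). The tubulin gene *Tubb2b* was lowest among them with a log2 fold change of -1.27, from 29.9 ± 2.73 to 11.8 ± 0.552 RPKM, and *Mapt*, which encodes tau, was highest at -0.08 and not called. With TMM, upper-quartile or RLE factors 9 of the 12 microtubule genes were called lower. Tubulin genes are near-identical over long stretches, so short reads can be split among them.

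Regulators of these proteins were called about as often as genes in general. Among 20 genes for kinases, phosphatases and calmodulins that act on stathmins, CRMPs, DCX and GAP43, 4 were called lower and 1 higher, beside 14.5% and 8.81% of all genes, with a median log2 fold change of -0.08. They ran from *Dyrk2*, a kinase that phosphorylates CRMPs, at -0.18 to *Prkce*, which encodes protein kinase C epsilon, at 0.16. With TMM factors 0 of the 20 were called lower, and with scaling to rod genes 20 of 20 were, with *Prkce* at -0.13. Of 12 regulators of axon regrowth 8 were listed, 1 was called lower and 0 higher. That was *Klf7*, a factor that promotes axon growth, at -0.36, and *Stat3* was highest at 0.10 and not called.

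Of 18 neurogenic regulators 13 were listed, 9 were called lower and 0 higher (median -0.25), beside 14.5% and 8.81% of all genes. The range was from *Insm1*, a zinc finger factor of neuronal differentiation, at -0.64 to *Nhlh2*, a basic helix-loop-helix factor, at 0.15, which was not called. *Atoh7* and *Neurog2*, which act in progenitors before or at the last division, were not listed. Of 18 proliferating progenitor markers 8 were listed, among which *Mcm6*, a replication helicase gene, was the 1 called lower (-0.21) and *Mcm4* was highest (0.15, not called, though called with TMM factors at an adjusted p of 0.0498). *Mki67*, *Top2a* and *Cdk1* were not listed. The complex of REST, a repressor of neuronal genes outside neurons, had 2 of 10 genes called lower and 0 higher. Like the count of the progenitor markers, this was near the shares of all genes. Values ran from the REST corepressor *Rcor2* at -0.51 to *Kdm5c*, an H3K4 demethylase gene, at 0.15, which was not called. With libraries scaled to rod genes, 0 genes of these lists were called higher.

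**Figure D4:**
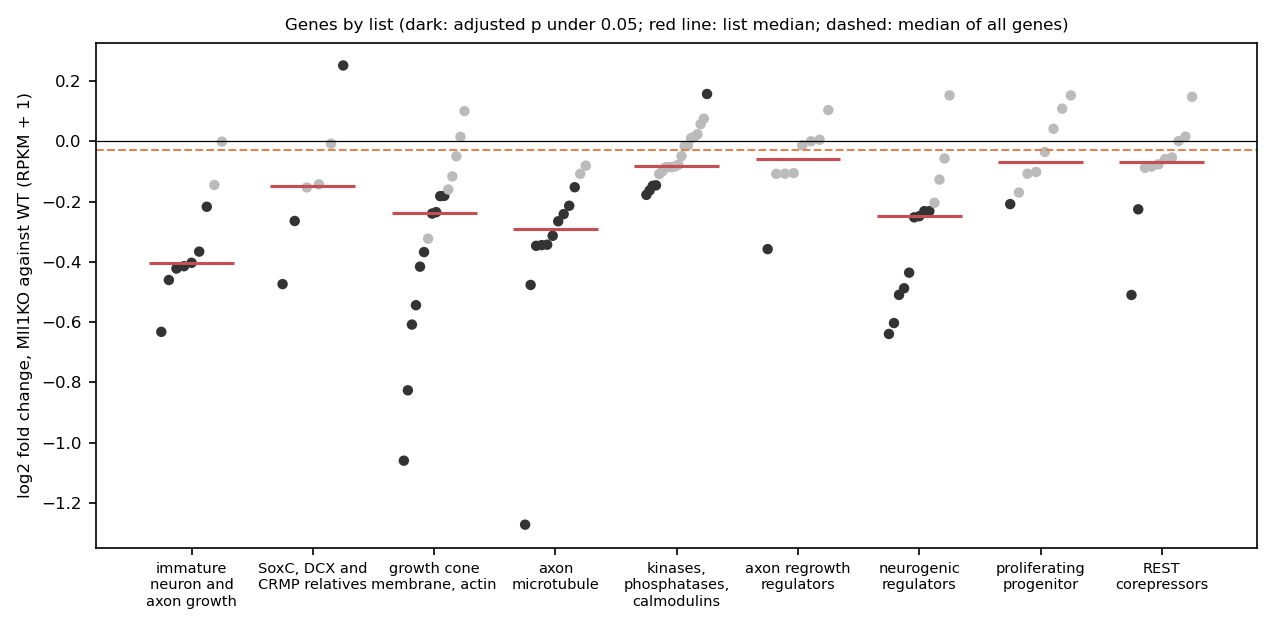
Log2 fold change of RPKM + 1 in *Mll1KO* against WT (y axis) for each listed gene of 9 lists (x axis), with dark points for an adjusted p under 0.05, red lines for list medians and a dashed line for the median of all genes. Among these 9 lists the immature neuron and axon growth genes have the lowest median, -0.40, and *Tubb2b* and *Islr2* are the lowest single points. Cell type marker lists are not shown. Of those, only ganglion cell markers had a lower median (-0.50), and the median of horizontal cell markers was nearly the same (-0.40).

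Markers of inner retinal neurons were mostly lower in the same libraries, where 14.5% of all genes were called lower and 8.81% higher. Of 15 ganglion cell markers 13 were listed, 12 were called lower and 0 higher, and their summed RPKM was 763.3 to 803.5 in WT and 546.8 to 629 in *Mll1KO*, a log2 difference of -0.43. *Tubb3* belongs to this list and to the microtubule genes, and *Ebf3* to this list and to the neurogenic regulators. *Pou4f3* and *Isl2* were not listed. Amacrine markers were mixed, with 7 of 13 listed called lower and 2 higher (4 higher with TMM factors), and sums of 677.1 to 699 in WT and 593.2 to 626.4 in *Mll1KO* (*Th* and *Ptf1a* were not listed). Of 7 listed horizontal cell markers 6 were called lower, with sums of 118.8 to 123.5 and 86.7 to 92.4 RPKM. *Lhx1* and *Gja10* were not listed. Of 15 bipolar markers 8 were called lower, with sums of 666.7 to 686.1 and 568.9 to 585.6 RPKM. With TMM, upper-quartile or RLE factors 7 of these 15 were called lower. Rod markers went the other way, with 10 of 13 called higher and 1 lower and sums of 17730 to 18600 RPKM in WT and 22100 to 22870 RPKM in *Mll1KO*. Of 14 Müller glia markers 7 were called higher and 2 lower, and of 11 cone markers 7 higher and 1 lower. With scaling to rod genes these counts became 4 higher and 7 lower for Müller glia and 3 higher and 4 lower for cones. The log2 difference of the summed RPKM of the 9 immature neuron and axon growth genes was -0.28. It was -0.47 for pigment epithelium markers, whose sums varied widely within both groups. The log2 difference was -0.44 for horizontal, -0.43 for ganglion, -0.36 for vascular, -0.23 for bipolar and -0.16 for amacrine markers. For rod (0.30), cone (0.17), Müller glia (0.30), astrocyte (0.69), microglia (0.01) and lens markers (1.05, *Cryaa* alone) it was above 0. *Stmn3*, *Dpysl3* and *Crmp1*, the genes with the highest RPKM, weigh most in the sum of the 9 genes. What part the amounts of these cells have in the lower levels of *Sox4*, *Gap43*, *Stmn2* and the other genes was not tested.

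Markers of glial and non-neural cells gave mixed counts, beside 14.5% of all genes called lower and 8.81% higher. Of 4 listed microglia markers 0 passed the test (*Aif1*, *Tmem119*, *P2ry12* and *C1qa* were not listed), of 3 listed astrocyte markers 2 were called higher (*Pax2* was not listed), and of 7 vascular markers 3 were called lower and 1 higher. Of 5 listed pigment epithelium markers 0 passed the test, and their sum varied within groups, from 108.9 to 258.6 RPKM in WT and from 99.4 to 191.2 RPKM in *Mll1KO*. *Rpe65*, *Lrat*, *Best1* and *Mlana* were not listed. For the lens, *Cryaa* alone of 6 markers was listed, at 6.54 to 7.51 RPKM in WT and 7.28 to 32.1 RPKM in *Mll1KO*.

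The decreases of *Sox4*, *Dcx*, *Gap43*, *Stmn2*, *Crmp1* and *Dpysl3* kept their call in all 17 alternatives, whereas *Stmn1*, *Stmn3* and *Stmn4* depended on the setting. Scaling by TMM, upper-quartile or RLE factors moved the median of all genes to between -0.0019 and 3e-04 and left that of the 9 genes at -0.38. With RLE factors *Stmn1* was no longer called (adjusted p = 0.0504). Setting the libraries to an equal rod gene sum lowered the median of all genes to -0.30 and that of the 9 genes to -0.64, -0.34 below all genes, and called all 9 lower. On that scale *Stmn4* had a log2 fold change of -0.29 (adjusted p = 0.000926), near the median of all genes, and *Stmn3* one of -0.45 (adjusted p = 2.5e-05). With limma-voom on recovered reads *Stmn3* also passed the test (log2 fold change -0.15, adjusted p = 0.0407).

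**Figure D5:**
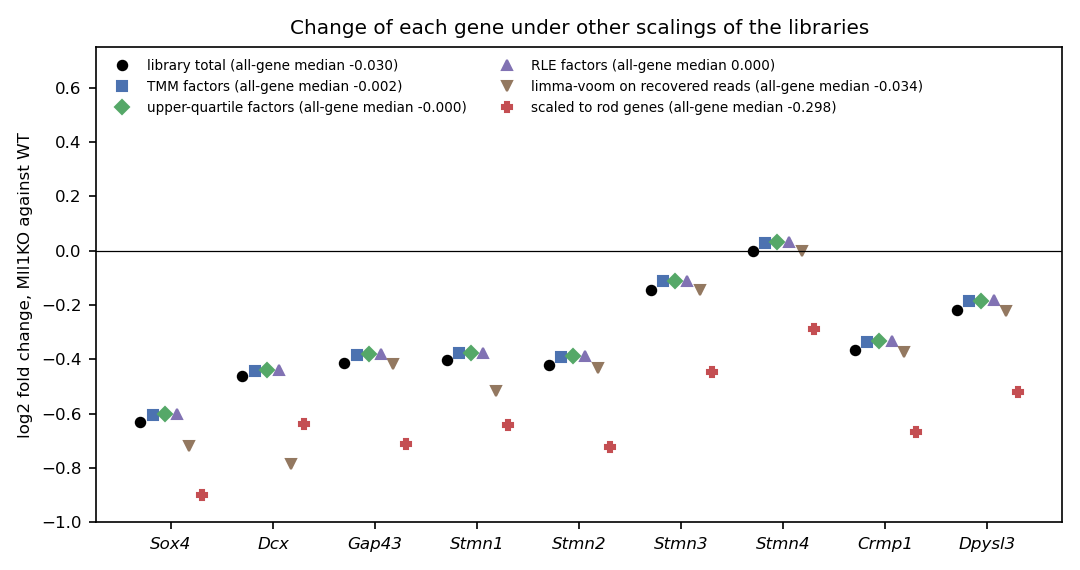
Log2 fold change of each listed gene in *Mll1KO* against WT (y axis) when libraries were scaled to their total, by TMM, upper-quartile or RLE factors, through limma-voom, or to an equal rod gene sum, with the median of all genes under each scaling in the key. All listed genes except *Stmn4* are below 0 under every scaling, and *Stmn4* lies near 0 except with the rod scaling.

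The genes whose profile over the 6 libraries was most like the mean of the 9 centred genes were *Pag1* (Pearson r = 0.9994), *Wnk4* (r = 0.9992) and *Hkdc1* (r = 0.9991), of 11339 genes compared. The libraries fall into 2 genotypes, so these coefficients largely describe the difference between WT and *Mll1KO*. All 3 genes were lower in *Mll1KO*, with log2 fold changes of -0.34, -0.63 and -0.68.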

How the data were processed

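RNA from the retina of 3 *Mll1KO* and 3 WT samples at P14 was sequenced as single 50-base reads. Per the labels and the methods, the authors aligned reads with STAR (2.0.4b) to mm10, counted them per gene with featureCounts (1.45), removed weakly expressed genes by CPM and deposited RPKM, which is scaled to gene length and library total. The log2 fold change, log2 CPM, p-value and FDR columns deposited by the authors hold their own edgeR comparison and were not used. Identical lines of 59 gene IDs were merged, which left 11339 genes of 11404 lines, and 18 symbols that had become dates were restored. Reads were recovered by finding the library totals and gene lengths that give whole reads, within 0.05 reads, for 100% of genes. The annotation length was kept where it did so, for 53.4% of matched genes. Elsewhere the smallest length that did so and passed the authors' CPM filter was taken. Lengths and reads of such genes, among them *Stmn2*, *Crmp1* and *Dpysl3*, are therefore inferred. Replicates differed by more than counting noise.

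Log2(RPKM + 1) was compared between genotypes with limma 3.58.1 (trended variance) in R 4.3.3, without other terms, two-sided, as the design foresaw for RPKM in place of the authors' count test. Within-library log2 ratios were compared by exact permutation tests. *Sox4* could not be paired with *Sox11*. On simulated reads for 11339 genes with 200 changed, the test called 100% of those changed 2-fold and 99% of those with a log2 change of 0.5. There, 5.69% of calls were unchanged genes. Whether these rates hold for the retinal libraries, in which 23.3% of all genes were called, was not tested. Alternatives were other pseudocounts, scalings, filters, limma-voom on recovered reads, a replicate block and leaving out each library.

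The genes and lists were chosen with earlier results of these data known. Named were all 10 genes, *Kmt2a*, each list's highest and lowest gene, called relatives and the 3 most similar profiles. The other genes were named as members of marker lists that were not listed or shared. Coordinates came from GENCODE vM21 (11323 gene IDs matched) and promoters from RefSeq, both on GRCm38, with Python 3.11.15, numpy 2.4.6, pandas 2.3.3 and matplotlib 3.10.9.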

Additional observations from a re-analysis of the deposited data

How the results depend on the processing

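Of the 11339 genes, 2643 were called changed, 62.2% of them lower. The share called lower was 48.1% with TMM, 47.3% with upper-quartile and 46.9% with RLE factors, and scaling to rod genes called 9651 genes, 97.6% of them lower. Leaving out 1 library gave between 1704 (without WT replicate b) and 2536 genes, with 1757 without *Mll1KO* replicate c. Of the 9 listed genes between 6 and 7 stayed called, with *Stmn1* the gene lost. Same-letter replicates did not deviate together (correlations of deviations -0.039, -0.19 and -0.007). Deviations centred within groups of 3 libraries cannot decide whether a letter marks a shared origin. A replicate block gave 2242 changed genes and called 7 of the 9.

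*Stmn4* changed sign with TMM (0.0294), upper-quartile (0.0312) and RLE factors (0.0317), with limma-voom (6e-04) and among the leave-one-out fits (-0.0355 to 0.0325), always without passing the test. *Stmn1* over *Stmn2* turned with a pseudocount of 5 (0.1738) and ranged from -0.2265 to 0.0838 when 1 library was left out, and *Dcx* over *Gap43* turned with a pseudocount of 5 (0.1976), which weighs most on weakly expressed genes. The causes were not tested. Of all values recomputed, 230 kept their direction and, where tested, their call, 11 reversed, 4 lost and 3 gained a call, and 3 counts moved by over 1.5 times. Only genes past the authors' CPM filter could be examined, and 3 libraries per group limit the precision.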
